A study of Mus musculus with 9 samples.

Results

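Cytokine receptors of blood progenitors, encoded by 9 genes, were followed in RNA sequencing libraries of sorted mouse bone marrow cells labelled as haematopoietic stem cells (HSCs). The 9 genes are Epor, Csf3r, Csf1r, Csf2ra, Csf2rb, Csf2rb2, Il6ra, Il1r1 and Il6st. They were taken by gene symbol from 19454 genes in the deposited tables, and all 9 passed the filter on low counts, as did 14461 genes in all. Each of the 9 libraries came from 1500 sorted cells of wild-type mice and 12 cycles of PCR enrichment, with 3 libraries in each of 3 groups. Control mice have no brain intervention named in the labels. Inhibition mice had nerve cells in 2 brain regions, the mPFC and PAG (abbreviations commonly used for the medial prefrontal cortex and for the periaqueductal grey), silenced by chemogenetics, in which an introduced receptor lowers neuronal activity when its drug is given. In the spermidine group the same silencing was combined with a supplement of spermidine, a polyamine. The labels name no promoter, receptor, drug or control virus, and no age, sex, sorting marker or batch, so virus or drug effects and silencing itself cannot be told apart. The labels also name no source animals, so the p-values reflect spread among libraries alone, which may be technical.

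Cytokine receptors at the surface of progenitors pass signals for survival, division and choice of lineage. Receptors for erythropoietin, G-CSF, GM-CSF and IL-6 have no kinase of their own and signal through bound Janus kinases (JAKs), which activate STAT transcription factors. The M-CSF receptor Csf1r is itself a tyrosine kinase, and the IL-1 receptor Il1r1 works with the co-receptor Il1rap through the adaptor Myd88 and IRAK kinases.

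Total estimated counts per library ran from 16096276 to 25360256, of which the 9 receptor genes held 890 to 2789. At these depths a floor of 3 counts equals 0.118 to 0.186 CPM (counts scaled to library size, here with edgeR's TMM factors). The cell label was checked against 15 HSC markers, whose summed level was 526 to 542 CPM in control, 625 to 629 in inhibition and 694 to 703 in spermidine libraries. The list holds Cd48, a surface protein by whose absence HSCs are often sorted, at 205, 239 and 182 CPM in the 3 groups, and without it the sums were 325 to 328, 381 to 392 and 516 to 520 CPM. In the control libraries some defining HSC markers were low, with the surface marker Ly6a at 6.21 CPM against 83.5 under inhibition and 94.5 under spermidine, and Procr at 0.125 CPM against 4.1 and 7.59. The same control libraries were high in megakaryocyte genes and in some erythroid genes, such as the carbonic anhydrase gene Car1 at 1597 CPM against 29.7 and 26, while the globin gene Hba-a2 was low, at 47.9 CPM against 327 and 143. For Ly6a and Procr the control libraries went against their HSC label. Summed neutrophil markers were 1932 to 1996 CPM in control, 53525 to 54822 in inhibition and 17546 to 18047 in spermidine libraries. None of the measured markers in the lists used was at 0 in every library of a group, and Hbb-bs, Tpsb2 and Trac were not analysed here.

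The promoters of Epor and Il1r1 are shown because these members had the largest fitted decrease and increase. Both are the 250 bases before a RefSeq transcription start in GRCm38.p6, read 5′ to 3′ on the gene's own strand. Epor lies at chr9:21963577-21963826 on the minus strand, and Il1r1, at its upstream start, at chr1:40224830-40225079 on the plus strand. Capitals in Epor mark a GATA word (GATA with A or T before it and A or G after it, on either strand) that begins 54 bases before the start. Capitals in Il1r1 mark a match to TTGCNNAA, a word of the C/EBP type, that begins 133 bases before the start. The window of the other Il1r1 start, at chr1:40266336-40266585 on the plus strand, held no such match and is not shown.
Epor: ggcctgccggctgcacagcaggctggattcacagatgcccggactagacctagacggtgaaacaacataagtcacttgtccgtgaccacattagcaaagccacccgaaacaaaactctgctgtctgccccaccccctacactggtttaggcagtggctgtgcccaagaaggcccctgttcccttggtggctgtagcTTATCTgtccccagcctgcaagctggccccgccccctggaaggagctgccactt
Il1r1: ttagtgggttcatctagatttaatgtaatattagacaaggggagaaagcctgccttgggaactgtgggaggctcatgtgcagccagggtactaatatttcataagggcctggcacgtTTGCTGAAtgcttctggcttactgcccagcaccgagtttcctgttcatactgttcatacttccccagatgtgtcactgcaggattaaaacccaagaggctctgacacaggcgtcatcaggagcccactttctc
A GATA word was present in 26.5% of 32851 promoter windows of this length and TTGCNNAA in 9.56%, each counted on both strands and regardless of overlap with other words. Promoter windows were examined for 7 of the 9 genes, all but Csf1r and Csf2rb. A GATA word also stood in those of Csf2rb2 and Il6ra, and GAGGAA, a word of the ETS type held by 23.3% of windows, in those of Csf3r, Csf2ra, Csf2rb2 and Il6ra. TTCNNNGAA, the STAT word, stood in that of Csf2rb2 alone among these 7 and in 7.02% of all windows. These matches describe letters and were not tested for binding.

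Csf2rb and Csf2rb2 are neighbouring copies on chromosome 15, and their stretches are shown because reads that fit both can be counted for either. Their coding sequences, of 2691 and 2637 bases in the GENCODE M21 transcripts on GRCm38, were identical at 95.2% of 2631 aligned bases. The first pair of 60-base coding stretches is the most different of all, with 13 differing bases, which are in capitals. It lies in exon 4 of each gene, at chr15:78338893-78338952 on the plus strand for Csf2rb and at chr15:78294379-78294438 on the minus strand for Csf2rb2. The second pair has 2 differences, the median over all stretches, and lies in exon 2, at chr15:78335218-78335277 and chr15:78298159-78298218.
Csf2rb, most different stretch: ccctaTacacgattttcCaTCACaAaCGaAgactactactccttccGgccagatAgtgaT
Csf2rb2, most different stretch: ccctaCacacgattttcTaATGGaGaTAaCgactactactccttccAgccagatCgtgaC
Csf2rb, typical stretch: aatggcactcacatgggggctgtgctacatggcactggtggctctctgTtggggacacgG
Csf2rb2, typical stretch: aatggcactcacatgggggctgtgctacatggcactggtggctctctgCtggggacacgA
Windows of 150 bases were taken along the full transcripts, of 4764 bases for Csf2rb and 4740 for Csf2rb2, untranslated parts included. Of these, 3.58% in Csf2rb and 3.59% in Csf2rb2 occurred unchanged in a transcript of the other copy. For windows of 50 bases the shares were 18.9% and 19%. Single counts for these copies are therefore uncertain, and their sum is given beside them.

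Most of the receptor genes were higher after brain inhibition and 1 was lower. Of the 9 genes, 7 were higher (Csf3r, Csf2ra, Csf2rb, Csf2rb2, Il6ra, Il1r1 and Il6st), 1 was lower (Epor) and 1, Csf1r, was not called, by edgeR's quasi-likelihood test at a Benjamini-Hochberg adjusted p under 0.05. Over all genes tested, 36.2% were higher and 36.1% lower in this comparison. For 8 of the 9 genes no library of one group fell within the range of the other, against 74.5% of all genes. The median log2 fold change was 0.87 over the receptor genes and 0.02 over all genes, and the median size without sign was 1.52 and 0.59.

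Between the spermidine and inhibition groups the receptor genes were split. Il1r1 and Il6st were higher with spermidine, Csf3r, Csf2ra and Csf2rb were lower, and 4 were not called. Of all genes, 29.1% were higher and 28.9% lower, so the members' shares lay near the background. Libraries did not overlap for 5 of the 9 genes, against 62.8% of all genes, and the median log2 fold change was -0.04 against 0.03 over all genes. This comparison depended on scaling: with total counts in place of TMM the median of all genes moved by 0.26 on the log2 scale, and 7711 genes were higher and 1793 lower instead of 4213 and 4183. Under that scaling 3 receptor genes were higher (Il1r1, Il6st and Csf2rb2) and 1 lower (Csf2rb).

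Against control, the spermidine group had 6 receptor genes higher and 1 lower, with Csf1r and Csf2ra not called. Among all genes 41% were higher and 37.1% lower. For 8 of the 9 genes the libraries did not overlap, as for 79.8% of all genes. The median log2 fold change was 1.19 against 0.06 over all genes. With total counts in place of TMM, 7705 genes were higher and 3682 lower instead of 5930 and 5363, and 7 receptor genes were higher and 1 lower. All 3 comparisons share groups with one another, so their values for a gene are given side by side and are not independent.

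**Figure D1:**
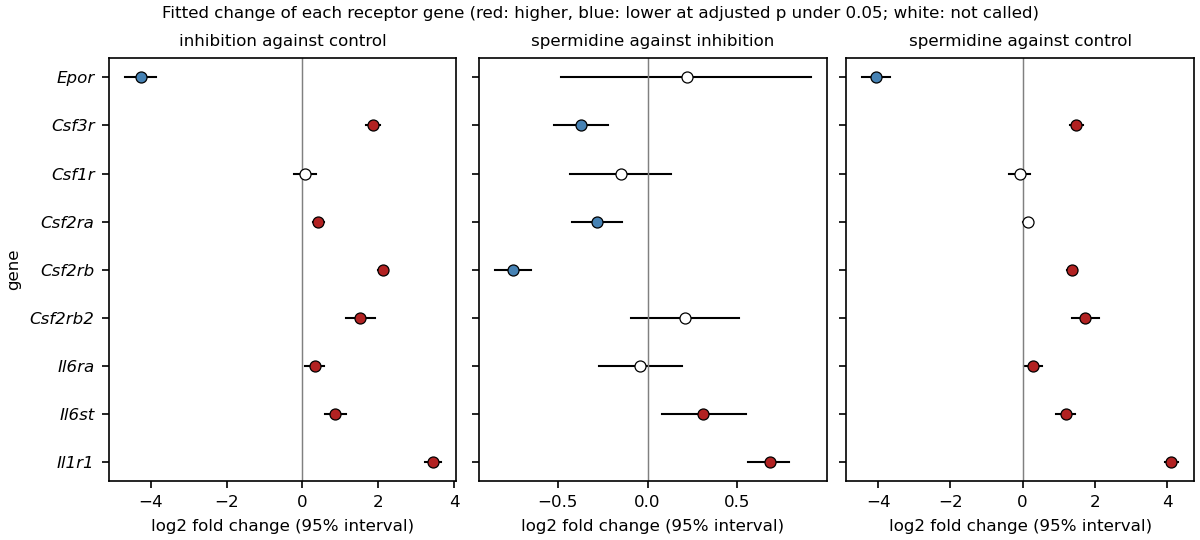
Fitted log2 fold change of each receptor gene (points) with its 95% interval (lines) in the 3 comparisons, with a separate horizontal scale for each. Epor lies at -4.26 and -4.05 against control while Il1r1 lies at 3.44 and 4.11, and the changes between the spermidine and inhibition groups run only from -0.75 to 0.68.

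Epor encodes the erythropoietin receptor, which erythroid progenitors need to survive, and lies at chr9:21958897-21963506 on the minus strand. It was detected at 9.46, 8.47 and 9.18 CPM in the control libraries, 0.492, 0.374 and 0.55 CPM in the inhibition libraries and 0.363, 0.744 and 0.498 CPM in the spermidine libraries. Every control library lay above all 6 others, and the inhibition and spermidine libraries overlapped. Counts behind these levels were 156, 158 and 178 in control, 8, 9 and 11 in inhibition and 9, 19 and 9 in spermidine libraries. Epor fell 19.2-fold in the inhibition group (log2 fold change -4.26, SE 0.2, edgeR adjusted p = 3.31e-12), and 2.32% of all tested genes had a larger change in either direction. It fell 16.5-fold in the spermidine group against control (log2 fold change -4.05, SE 0.18, edgeR adjusted p = 3.05e-12). Spermidine against inhibition gave 0.22 with a 95% interval of -0.48 to 0.91 (edgeR adjusted p = 0.613), at counts of 8 to 19 per library. In bulk samples such as these, fewer cells of a type and less RNA per cell cannot be told apart.

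Of 14 erythroid markers measured, 9 were lower, such as Car1, and 5 higher, such as Hba-a2, in the inhibition group. Their summed level was 3754 to 3816 CPM in control, 1342 to 1379 in inhibition and 1243 to 1298 in spermidine libraries. All 12 megakaryocyte and platelet markers were lower under inhibition, from a sum of 3173 to 3213 CPM in control to 184 to 196, and stood at 194 to 206 under spermidine. Epor, like both sums, was highest in control. With spermidine against inhibition 2 erythroid markers were higher and 9 lower, or 4 and 5 with total count scaling, while Epor was not called. The part of these lists in the result for Epor was not tested.

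Csf3r, the receptor for G-CSF that drives the growth and maturation of granulocytes, rose in both silenced groups. It lies at chr4:126024550-126044440 on the plus strand. Control libraries held 4.97, 6.17 and 5.21 CPM, inhibition libraries 18.9, 19.3 and 21.4 CPM, and spermidine libraries 15.2, 15.4 and 15.6 CPM. The 3 groups did not overlap at any point, with spermidine between the others. The log2 fold change was 1.86 for inhibition against control (SE 0.087, edgeR adjusted p = 4.25e-12) and 1.49 for spermidine against control (SE 0.089, edgeR adjusted p = 1.16e-10). Csf3r was lower with spermidine than with inhibition alone by the main test, at -0.37 (SE 0.071, edgeR adjusted p = 0.000346). That call was lost with total count scaling, at -0.11 (edgeR adjusted p = 0.197).

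Neutrophil and early myeloid genes were highest in the same libraries as Csf3r. Of 15 neutrophil markers, 14 were higher and 1 lower under inhibition, and all 15 were lower with spermidine than with inhibition alone. All 10 early myeloid progenitor markers were higher under inhibition and lower again with spermidine, with summed levels of 6011 to 6242 CPM in control, 17345 to 17949 in inhibition and 8602 to 8937 in spermidine libraries. Their part in the result for Csf3r, and in that for Csf2rb, was not tested.

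Csf1r, the receptor for M-CSF and IL-34 on monocytes and macrophages, was not called in any comparison of counts. Control libraries held 4.43, 4.08 and 3.82 CPM, inhibition libraries 4.67, 3.7 and 4.65 CPM, and spermidine libraries 3.91, 4.23 and 3.38 CPM. These ranges overlapped in all 3 comparisons. The log2 fold change was 0.07 for inhibition against control, with a 95% interval of -0.22 to 0.36, and -0.15 for spermidine against inhibition, with an interval of -0.43 to 0.13. Against control, spermidine gave -0.08 with an interval of -0.37 to 0.21. Of 14 tested monocyte and macrophage markers, 11 were higher and 2 lower under inhibition, with the sum of the list at 246 to 260 CPM in control, 484 to 492 in inhibition and 290 to 295 in spermidine libraries. Some Csf1r exons overlap those of Hmgxb3 on the opposite strand, and the labels state no strand for the library kit, so reads of the pair cannot be told apart there.

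**Figure D2:**
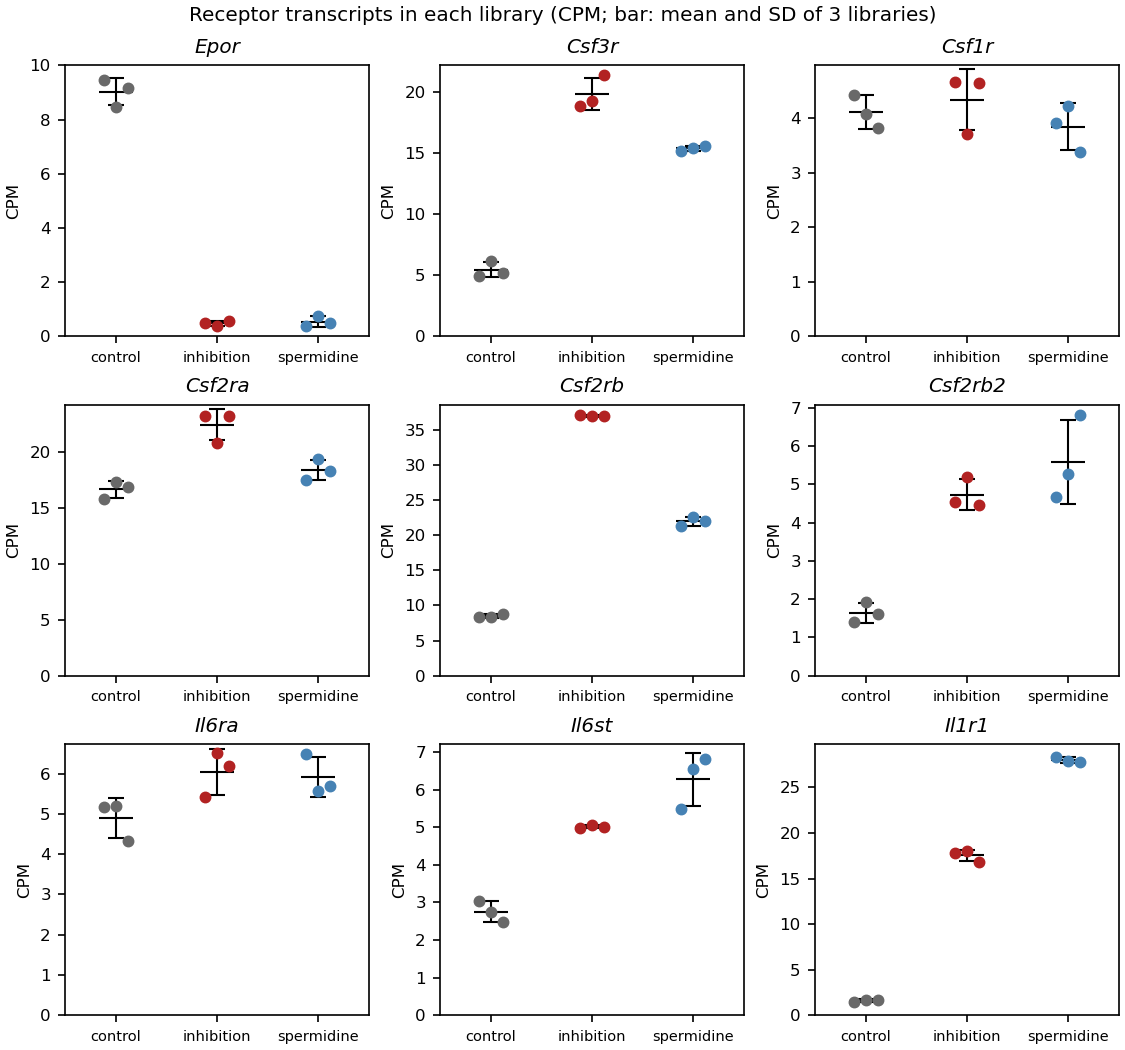
CPM of each receptor gene in the 3 libraries of each group (points), with the mean and SD of 3 libraries (bars); every vertical axis starts at 0. Epor is high in control and near 0.5 CPM elsewhere, Il1r1 runs from about 1.6 CPM in control to 28 CPM with spermidine, and the groups of Csf1r overlap.

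The receptors for GM-CSF, IL-3 and IL-5 share a signalling chain, the common beta chain encoded by Csf2rb, which pairs with a ligand-binding alpha chain such as Csf2ra. Csf2rb2 encodes a close mouse copy of the beta chain that serves IL-3. All 3 of these genes rose under inhibition, the beta chains more than the alpha chain.

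Csf2rb (chr15:78325752-78353847, plus strand) stood at 8.31, 8.37 and 8.82 CPM in control, 37.1, 36.9 and 36.9 CPM in inhibition and 21.3, 22.6 and 22 CPM in spermidine libraries. The groups were fully separate, and spermidine lay between the other 2. Its log2 fold change was 2.12 under inhibition (4.34-fold, SE 0.059, edgeR adjusted p = 3.31e-15). With spermidine it was lower than with inhibition alone by 1.68-fold (log2 fold change -0.75, SE 0.049, edgeR adjusted p = 1.85e-09), and it stayed above control by 1.37 (SE 0.062, edgeR adjusted p = 2.73e-12).

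Csf2rb2 (chr15:78282507-78305721, minus strand) did not follow its copy between the silenced groups. It held 1.4, 1.93 and 1.6 CPM in control, 4.55, 5.19 and 4.45 CPM in inhibition and 4.68, 5.28 and 6.81 CPM in spermidine libraries, so the last 2 groups overlapped. The log2 fold change was 1.52 for inhibition against control (SE 0.18, edgeR adjusted p = 9.99e-07) and 1.74 for spermidine against control (SE 0.18, edgeR adjusted p = 1.22e-07). Spermidine against inhibition gave 0.21 with a 95% interval of -0.09 to 0.51 (edgeR adjusted p = 0.208), and 0.47 with total count scaling (edgeR adjusted p = 0.00714). Summed into 1 gene, the copies changed by 2.04 under inhibition (SE 0.06), and by -0.6 with spermidine against inhibition (SE 0.05, edgeR adjusted p = 3.65e-08).

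Csf2ra (chr19:61223957-61228429, minus strand), the alpha chain of the GM-CSF receptor, changed least of the 3. Control libraries held 15.8, 17.3 and 16.8 CPM, inhibition libraries 23.2, 20.8 and 23.2 CPM, and spermidine libraries 17.5, 19.3 and 18.3 CPM. The inhibition libraries lay above all others, and spermidine libraries lay just above control. The log2 fold change was 0.42 for inhibition against control (SE 0.067, edgeR adjusted p = 2.59e-05), -0.28 for spermidine against inhibition (SE 0.064, edgeR adjusted p = 0.00147) and 0.14 for spermidine against control (interval -0.00 to 0.29, edgeR adjusted p = 0.0632). The call against inhibition was lost with total count scaling (-0.02, edgeR adjusted p = 0.816), while spermidine against control was then called (0.41, edgeR adjusted p = 3.9e-05) and was also called without spermidine replicate 1 (0.18, edgeR adjusted p = 0.0403). On TPM values, the rise under inhibition was 0.15 on the log2(TPM + 1) scale and was not called by limma (adjusted p = 0.181).

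IL-6 binds Il6ra, which then engages Il6st (gp130), the signalling chain that the receptors for IL-11, LIF and oncostatin M also use. Both genes were higher under inhibition, Il6st by more. Il6st (chr13:112464070-112510086, plus strand) was at 3.03, 2.74 and 2.48 CPM in control, 4.98, 5.07 and 5 CPM in inhibition and 5.48, 6.54 and 6.81 CPM in spermidine libraries. The groups did not overlap, with spermidine highest. Its log2 fold change was 0.87 under inhibition (SE 0.13, edgeR adjusted p = 1.69e-05) and 1.19 with spermidine against control (SE 0.13, edgeR adjusted p = 2.38e-07). Spermidine exceeded inhibition by 0.31 (SE 0.11, edgeR adjusted p = 0.023). This last call was lost with DESeq2 (adjusted p = 0.144) and with no filter on low counts (edgeR adjusted p = 0.0626). It was not called by limma on log2(TPM + 1) or log2(TPM + 0.1) either (adjusted p = 0.123 and 0.175). The call was also lost without any 1 of inhibition replicates 1, 2 or 3 or spermidine replicates 2 or 3 (edgeR adjusted p from 0.0556 to 0.0867).

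Il6ra (chr3:89864059-89913196, minus strand) changed little. It stood at 5.16, 5.2 and 4.33 CPM in control, 5.41, 6.52 and 6.2 CPM in inhibition and 6.49, 5.56 and 5.7 CPM in spermidine libraries. Both silenced groups lay just above control without overlap, and they overlapped each other. Its log2 fold change was 0.32 under inhibition (SE 0.12, edgeR adjusted p = 0.0232), 0.28 with spermidine against control (SE 0.12, edgeR adjusted p = 0.0378) and -0.04 with spermidine against inhibition (interval -0.27 to 0.19). DESeq2 called neither difference from control (adjusted p = 0.0759 and 0.136). Without control replicate 3, inhibition replicate 2 or inhibition replicate 3 the first was lost (edgeR adjusted p = 0.134, 0.118 and 0.0636), and without any 1 of control replicates 1 to 3, inhibition replicates 1 to 3 or spermidine replicate 1 the second was lost (edgeR adjusted p from 0.0502 to 0.215). Exons of Gm42809 overlap Il6ra on the opposite strand, with the same limit as for Csf1r.

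Il1r1, the signalling receptor for IL-1, had the largest increase of the 9 genes. It lies at chr1:40225080-40317257 on the plus strand. Control libraries held 1.46, 1.72 and 1.65 CPM, inhibition libraries 17.8, 18 and 16.8 CPM, and spermidine libraries 28.4, 27.9 and 27.8 CPM. The groups were fully separate and spermidine was the highest. Il1r1 rose 10.8-fold under inhibition (log2 fold change 3.44, SE 0.095, edgeR adjusted p = 3.21e-15) and a further 1.6-fold with spermidine (log2 fold change 0.68, SE 0.056, edgeR adjusted p = 3.4e-08). Against control the spermidine group was 17.3-fold higher (log2 fold change 4.11, SE 0.088, edgeR adjusted p = 1.43e-16), and 2.44% of tested genes had a larger change. Il1r1 was highest where the neutrophil marker sum was intermediate and the HSC marker sum was highest. The part of those lists in the result was not tested.

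Genes of the IL-1 receptor family and its adaptors, not all of which work with Il1r1, were described as a list of 14. Of these, 8 were higher and 4 lower under inhibition. With spermidine against inhibition, 2 were higher and 7 lower, or 7 higher and 2 lower with total count scaling. Il1r2, the decoy receptor that binds IL-1 without signalling and the coding gene just before Il1r1 on chromosome 1, rose from 1.5 ± 0.135 CPM in control to 78.1 ± 0.362 CPM under inhibition (SD, n = 3; log2 fold change 5.69, SE 0.072, edgeR adjusted p = 1.6e-19). With spermidine it stood at 25.2 ± 0.72 CPM, lower than under inhibition by 3.1-fold (log2 fold change -1.63, SE 0.042, edgeR adjusted p = 2.23e-14). These neighbouring genes thus differed in the sign of their change between the silenced groups, also with total count scaling, where Il1r2 gave -1.37 and Il1r1 0.94. The adaptor Myd88 rose from 13.7 to 29.2 CPM under inhibition and was at 23.2 CPM with spermidine, and the kinase Irak4 rose from 19.6 to 44 CPM and was at 40.4 CPM. The co-receptor Il1rap rose from 3.49 to 9.94 CPM under inhibition (edgeR adjusted p = 1.16e-08) and was at 7.68 CPM with spermidine, which was lower by the main test (edgeR adjusted p = 0.00591) and not called with total count scaling (-0.12, edgeR adjusted p = 0.331).

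Levels were compared between genes in TPM, which accounts for transcript length. In control, Csf2ra was highest at 12.2 ± 1.68 TPM (SD, n = 3), followed by Epor at 4.54 ± 0.207, Csf2rb at 1.35 ± 0.0139 and Csf3r at 1.02 ± 0.109, each without overlap with the next. Il6ra at 0.755 ± 0.156 TPM, Csf1r at 0.587 ± 0.0277 and Il6st at 0.434 ± 0.208 followed, each overlapping the next in this order. Csf2rb2 at 0.224 ± 0.0341 TPM and Il1r1 at 0.215 ± 0.0155 were lowest and overlapped.

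Under inhibition Csf2ra stayed first at 13.6 ± 0.957 TPM and Epor was last at 0.24 ± 0.0443. Between them came Csf2rb at 5.19 ± 0.108, Csf3r at 4.67 ± 0.225 and Il1r1 at 2.64 ± 0.0109 TPM, which did not overlap one another, and then Il6st at 1.3 ± 0.551, overlapping Il6ra at 1.05 ± 0.0938. With spermidine the order behind Csf2ra (13.3 ± 0.563 TPM) was Il1r1 at 5.4 ± 0.253, then Csf3r at 4.21 ± 0.235 and Csf2rb at 3.89 ± 0.157, which overlapped. Il1r1 thus went from the lowest place in control to the second with spermidine, and Epor from the second to the lowest.

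The summed TPM of the 9 genes was 21.3 ± 1.83 in control, 30.1 ± 1.45 under inhibition and 32.3 ± 0.6 with spermidine (SD, n = 3). Epor made up 21.4% of that sum in control, 0.8% under inhibition and 1.04% with spermidine. Il1r1 made up 1.01%, 8.77% and 16.7%, and Csf2ra 57.1%, 45.1% and 41.1%. Shares in this sum depend on each other, so a rise of one lowers the rest.

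Ratios within a library do not depend on scaling between libraries. TPM of Csf2ra to that of Csf2rb, the alpha to the common beta chain, was 7.7, 9.96 and 9.39 in control, 2.57, 2.81 and 2.49 under inhibition and 3.42, 3.43 and 3.4 with spermidine. The groups did not overlap, and control was highest. Csf2rb2 to Csf2rb was 0.144, 0.192 and 0.16 in control, 0.126, 0.144 and 0.124 under inhibition, and 0.225, 0.235 and 0.316 with spermidine. The spermidine libraries were highest in this ratio of copies, although on estimated counts they overlapped control.

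Il1r1 to Csf3r, a pair chosen after the values were seen, was 0.213, 0.2 and 0.223 in control, 0.546, 0.598 and 0.552 under inhibition and 1.28, 1.27 and 1.3 with spermidine. These groups were fully separate, with Il1r1 above Csf3r in the spermidine libraries alone. For Il6ra to Il6st, control values of 2.54, 2.8 and 0.869 overlapped those under inhibition, 0.539, 0.894 and 1.3. Spermidine values of 0.506, 0.653 and 0.647 lay below every control library and overlapped those under inhibition. TPM of Il6st rests on a transcript length that varied between libraries of a group, as given below. Estimated counts of Il6ra were 85, 97 and 84 in control and 88, 157 and 124 under inhibition. Those of Il6st were 50, 51 and 48 in control and 81, 122 and 100 under inhibition. A ratio of counts was not taken for this pair.

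**Figure D3:**
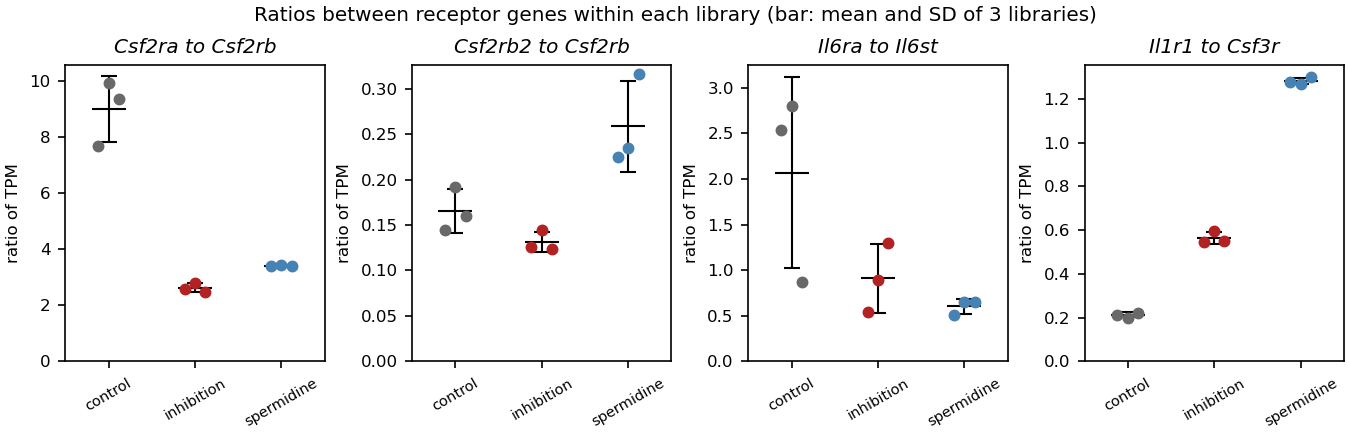
Ratio of the TPM of 2 receptor genes in each library (points), with the mean and SD of 3 libraries per group (bars) and axes from 0. Csf2ra to Csf2rb drops from a mean of 9.02 in control to 2.62 under inhibition and is 3.42 with spermidine, while Il1r1 to Csf3r goes from 0.212 to 0.565 and 1.28.

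Counts and TPM differed in what they showed for some receptor genes. Dividing a gene's deposited count by its TPM, relative to the median gene of the library, gives the effective transcript length that the authors' quantification used. On the log2 scale this length for Csf1r was 1.28, 1.15 and 1.19 in control, 0.95, 0.78 and 1.14 under inhibition and 0.45, 0.64 and 0.28 with spermidine. It was shorter with spermidine in every library, by -0.50 against inhibition and -0.75 against control, and 4.87% and 4.82% of tested genes moved more in those comparisons.

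Csf1r in TPM was 0.595, 0.61 and 0.556 in control, 0.835, 0.745 and 0.718 under inhibition and 1.22, 1.17 and 1.18 with spermidine, 3 groups that did not overlap. On log2(TPM + 1) limma called it higher in all 3 comparisons, by 0.15 for inhibition against control (adjusted p = 0.0273), 0.31 for spermidine against inhibition (adjusted p = 0.000881) and 0.46 for spermidine against control (adjusted p = 2.78e-05). On this scale the median of all genes also moved, to 0.18 and 0.21 in the last 2 comparisons. Read counts for Csf1r, in contrast, overlapped once scaled between libraries. Csf1r has 6 annotated transcripts of 416 to 4701 bases, and which of them the reads came from was not tested.

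Il6st had the least steady length within groups. Its relative length was 1.69, 1.52 and 0.31 in control, -0.10, 0.44 and 1.17 under inhibition and -0.02, 0.83 and 0.74 with spermidine, so all groups overlapped. Its TPM accordingly ran from 0.31 to 0.674 in control, 0.756 to 1.86 under inhibition and 1.58 to 2.38 with spermidine, wider than its CPM. Epor, by contrast, stayed between -0.62 and -0.56 in all 9 libraries, and its fall was of similar size in both units (0.0522 of the control level in CPM, from 4.54 to 0.24 in TPM).

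**Figure D4:**
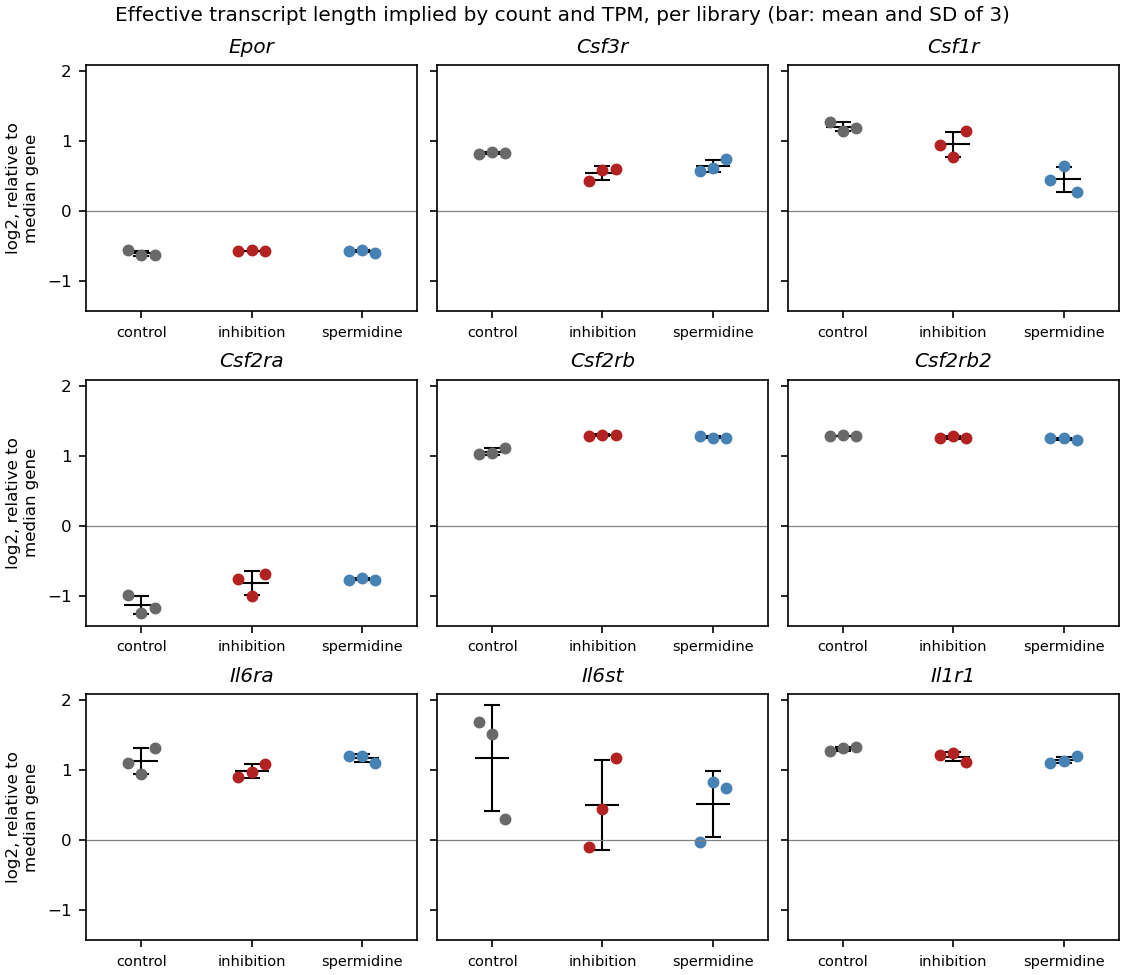
Log2 of count divided by TPM, relative to the median gene of the library, for each receptor gene in each library (points), with the mean and SD of 3 libraries (bars). Csf1r goes from a mean of 1.21 in control to 0.96 under inhibition and 0.46 with spermidine, Il6st is scattered within every group, and Epor is level at -0.60 to -0.57.

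Other genes of these pathways were taken from 10 lists that name 136 genes, of which 131 were measured and 122 tested. Under inhibition 57 were higher and 42 lower, with a median log2 fold change of 0.14 against 0.02 over all genes. For spermidine against inhibition 39 were higher and 29 lower, or 72 and 13 with total count scaling. Against control the counts with spermidine were 58 and 40, or 69 and 25 with total count scaling. These shares can be read against the backgrounds given above for all genes.

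Other type I and type II receptor chains included 28 tested genes, of which 17 were higher and 7 lower under inhibition, with a median of 0.70. With spermidine against inhibition 8 were higher and 6 lower, or 16 and 3 with total count scaling. Il2rg, the chain shared by receptors for IL-2 and IL-7, rose from 93.4 ± 1.26 to 326 ± 1.89 CPM under inhibition (SD, n = 3; edgeR adjusted p = 8.42e-18) and stood at 380 ± 10.5 with spermidine. Il7r, a receptor of lymphoid progenitors, rose from 1.18 ± 0.158 to 7.75 ± 0.197 CPM (edgeR adjusted p = 1.44e-11) and was at 8.04 ± 0.682 with spermidine. Most lymphoid markers were also higher under inhibition. Of 8 tested B and plasma cell markers 7 were higher and none lower, and of 7 tested T and NK cell markers 6 were higher and 1 lower. The first list, led by Jchain, summed to 64.7 to 66 CPM in control, 670 to 702 in inhibition and 281 to 297 in spermidine libraries. Sums of the second, led by Nkg7, were 1302 to 1384, 1909 to 2020 and 1016 to 1092 CPM. Both sums were thus lower with spermidine than under inhibition, while the mean levels of Il2rg and Il7r were not. Most of each sum under inhibition was 1 gene, Jchain at a mean of 579 CPM and Nkg7 at 1916 CPM. By gene, 0 of the first list were higher and 6 lower with spermidine against inhibition, or 2 and 4 with total count scaling. In the second list 2 were higher and 4 lower under either scaling. The part of these lists in the results for Il2rg and Il7r was not tested. Ifngr1, a chain of the interferon gamma receptor, was at 177 CPM in control, 217 under inhibition and 155 with spermidine.

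Kit and Flt3 are receptor tyrosine kinases of the same class as Csf1r and bind stem cell factor and FLT3 ligand. Kit was lower under inhibition, at 36.5 ± 0.933 CPM against 43.3 ± 1.38 in control (SD, n = 3; edgeR adjusted p = 8.83e-05), and was 46.5 ± 1.05 CPM with spermidine. In TPM the direction of Kit turned, from 6.71 in control to 7.85 under inhibition, and limma on log2(TPM + 1) called it higher by 0.20 (adjusted p = 0.0115). Flt3 rose from 12.4 ± 0.932 CPM to 18.7 ± 0.601 (edgeR adjusted p = 5.78e-07) and was 25.8 ± 0.672 with spermidine, higher than under inhibition (edgeR adjusted p = 5.21e-06).

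Of 20 ligands of these receptors, 15 were measured and 11 tested, with 4 higher and 4 lower under inhibition. Oncostatin M (Osm), which signals through Il6st, rose from 4.9 ± 0.0441 to 15 ± 0.318 CPM (SD, n = 3; edgeR adjusted p = 1.66e-11) and was at 7.35 ± 0.456 with spermidine. Il1b, a ligand of Il1r1, was at 23 ± 1.11 CPM in control and 20.9 ± 1.64 under inhibition (edgeR adjusted p = 0.0819), and at 12.2 ± 0.261 with spermidine, which was lower than under inhibition (edgeR adjusted p = 7.8e-08).

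Downstream of the receptors, 6 STAT genes are described. Of these, 4 were lower and 1 higher under inhibition, and the same counts held for spermidine against control, where with total count scaling 2 were lower and 1 higher. Stat3, the main STAT of IL-6 and G-CSF signalling, fell from 69.9 ± 0.854 CPM in control to 21 ± 2.13 under inhibition and 23.2 ± 0.627 with spermidine (SD, n = 3; log2 fold change -1.73 and -1.59, edgeR adjusted p = 3.92e-14 and 8.22e-14). Stat5a, which acts downstream of Epor and the common beta chain, fell from 23.6 ± 1.54 to 12.3 ± 0.817 CPM under inhibition (log2 fold change -0.93, edgeR adjusted p = 2.42e-08). It was at 18 ± 1.9 CPM with spermidine, higher than under inhibition (log2 fold change 0.55, edgeR adjusted p = 3.42e-05).

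Stat4 was the 1 of these genes that rose, from 6.83 ± 0.422 CPM to 16.9 ± 0.998 under inhibition and 20.9 ± 0.415 with spermidine. Stat5b fell from 15.6 to 11.4 CPM under inhibition. Stat2 was at 4.9 ± 2.79 CPM in control and 0.416 ± 0.102 under inhibition, and was lower by the test (log2 fold change -3.53, SE 0.5, edgeR adjusted p = 7.41e-06). Stat6 was not called in any comparison.

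The 4 JAK genes did not share a direction. Tyk2, a partner of Il6st and of interferon receptors, fell from 25.7 ± 2.23 CPM in control to 4.32 ± 0.336 under inhibition and 4.58 ± 0.631 with spermidine (SD, n = 3; log2 fold change -2.57 and -2.47, edgeR adjusted p = 3.86e-13 and 4.33e-13). Jak1, another partner of Il6st, rose from 47.3 ± 1.28 CPM to 72.3 ± 1.42 under inhibition (edgeR adjusted p = 1.63e-10) and 86.3 ± 0.659 with spermidine (edgeR adjusted p = 9.74e-06 against inhibition). Jak2, the kinase of Epor and the common beta chain, was lower under inhibition, at 23.3 ± 0.443 CPM against 29.2 ± 0.135 (edgeR adjusted p = 2.88e-05). Jak3, the partner of Il2rg, stood between 2.1 and 2.72 CPM in the group means and was not called.

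**Figure D5:**
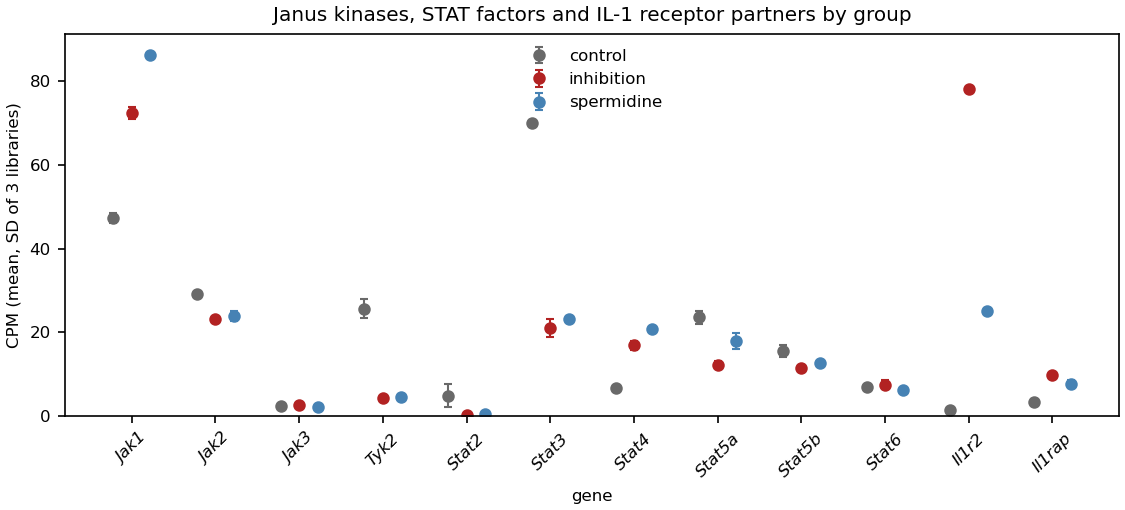
Mean CPM with SD of 3 libraries per group for JAK and STAT genes named in the text and for Il1r2 and Il1rap. Stat3 and Tyk2 are far higher in control (69.9 and 25.7 CPM) than in the other groups, Jak1 and Stat4 are lowest in control, and Il1r2 is highest under inhibition at 78.1 CPM.

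Genes known as targets of STAT5 and STAT3 numbered 18, of which 9 were higher and 6 lower under inhibition. With spermidine against inhibition 12 were higher and 2 lower, or 15 and 1 with total count scaling. Pim1, a survival kinase, was at 266 ± 8.16 CPM in control, 294 ± 7.85 under inhibition and 513 ± 6.53 with spermidine (SD, n = 3; log2 fold change against inhibition 0.80, edgeR adjusted p = 2.27e-12). Mcl1, which protects cells from death, rose from 67.8 ± 2.6 to 173 ± 4.4 CPM under inhibition and was 216 ± 4.67 with spermidine. Junb, an immediate-early factor, fell from 103 ± 4.08 to 42.5 ± 2.11 CPM under inhibition.

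Feedback inhibitors of these receptors numbered 20, with 11 higher and 4 lower under inhibition. Ptprc (CD45), a phosphatase of leukocytes, rose from 40.5 ± 1.15 to 117 ± 4.37 CPM, and Ptpn6 (SHP-1), a phosphatase that dampens receptor signals, from 26.1 ± 1.54 to 51.1 ± 1.65 CPM (SD, n = 3; edgeR adjusted p = 9.63e-15 and 4.37e-11). Sh2b3 (LNK), a brake on JAK2, was at 4.08 ± 0.295 CPM in control, 8.16 ± 0.358 under inhibition and 10.5 ± 0.315 with spermidine. Among 15 adaptors, 6 were higher and 5 lower under inhibition. The adaptor Tyrobp rose from 65.8 ± 1.59 to 228 ± 11.9 CPM and was 105 ± 5.43 with spermidine, an order shared by the neutrophil marker sum, whose part was not tested.

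The list of receptor shedding and trafficking had 6 tested genes, with 2 higher and 4 lower under inhibition. Adam17, a protease that cuts Il6ra and Csf1r from the cell surface, fell from 41.9 ± 2.99 to 10.7 ± 1.11 CPM and was 10.2 ± 0.694 with spermidine (SD, n = 3; log2 fold change -1.96 and -2.04 against control, edgeR adjusted p = 3.36e-13 and 1.86e-13). Adam10, a related protease, rose from 365 ± 8.49 to 523 ± 28.3 CPM under inhibition (edgeR adjusted p = 8.29e-10) and was 512 ± 8.56 with spermidine. Tfr2, a partner of Epor in erythroid cells, fell from 33.7 ± 1.11 to 8.43 ± 0.817 CPM under inhibition (edgeR adjusted p = 7.88e-14).

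For each receptor gene the 2 genes of most similar pattern were found among 8251 genes with a mean of at least 5 CPM, by the root mean square distance between mean-centred log2 CPM over the 9 libraries. Il1r1 was closest to Cyp2j9, a cytochrome P450 gene (distance 0.11 on the log2 scale), and to Hlf, a transcription factor gene of HSCs (0.14). Hlf was at 2.5 CPM in control, 22.3 under inhibition and 37.6 with spermidine, beside 1.61, 17.6 and 28 CPM for Il1r1. Epor was closest to Dpep2, a dipeptidase gene (0.25), and the water channel gene Aqp1 (0.26), at 117 and 33.1 CPM in control and 7 and 1.48 CPM under inhibition.

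Csf2rb was closest to Serpinb1a (0.07), a protease inhibitor gene at 498, 1929 and 1176 CPM in control, inhibition and spermidine groups, and to Trem3 (0.08). For Csf3r they were Vcam1 (0.09), an adhesion molecule gene at 9.15, 33.7 and 24.1 CPM, and Evi2a (0.10). Il6st lay closest to Akap11 (0.07) and Gstt1 (0.08), and Csf2rb2 to Stau2 and Pacc1 (0.15 each). For the remaining members the nearest were Cnpy3 (0.06) for Csf1r, Ahsa2 (0.04) for Csf2ra and Fmnl1 (0.07) for Il6ra.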

How the data were processed

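RNA of sorted bone marrow cells labelled as HSCs was sequenced in 9 libraries, with 3 in each of the control, inhibition and spermidine groups. Per the submitters' processing notes, the tools were edgeR 3.24.3, HTSeq 0.10.0, STAR 2.6.1d and Trim Galore 0.6.2 on build mm10, with no role given. Estimated counts for each gene, unscaled between libraries, were deposited by the authors, and of these 48.2% are whole to within 1e-06; how fractional values arose is not given in the sources used here, and reads fitting several genes may have been shared between them. The authors also deposited TPM, scaled within each library for length and depth, summing to 937835 to 948801 over the listed genes.

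Estimated counts were rounded and tested in R 4.3.3 with edgeR 4.0.16: quasi-likelihood test, 1 mean per group over all 9 libraries, TMM factors, the default filter on low counts (14461 of 19454 genes kept) and Benjamini-Hochberg adjustment over all of them, threshold 0.05. The script was tested on simulated data in which few genes changed. In the real data most genes were called, so that test cannot judge the choice of scaling. An SE is the size of the log2 fold change divided by the root of its F statistic. Coordinates are 1-based gene bounds from GENCODE M21 (19437 identifiers matched, 17 did not). With 3 libraries against 3, an exact permutation test of a single value cannot go below 0.10, so none was used. The floor of 3 counts covers counting error only, since PCR copies are not independent molecules.

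The receptor genes and all lists were chosen with earlier results of these data known. Named are all receptor, JAK and STAT genes, from each other pathway list up to 5 genes with the smallest p and a mean of at least 5 CPM, from marker lists up to 4 with the highest level, and the 2 genes nearest in pattern to each receptor gene. Procr and Il1rap fall outside this rule and were named after their values were seen. A result under this rule is not reported here.

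Alternatives were DESeq2 1.42.0, its size factors in edgeR, total count scaling, no filter, limma 3.58.1 on log2(TPM + 1) and log2(TPM + 0.1), only the 2 groups compared, a replicate block, Csf2rb and Csf2rb2 summed, marker and immunoglobulin genes left out (261 genes), and each library left out in turn. Residuals of libraries with the same replicate number correlated at -0.0365 to 0.0526, so the numbers were not taken as pairs.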

Additional observations from a re-analysis of the deposited data

How the results depend on the processing

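Against control, the counts of receptor genes called stayed within 1.5 times of the main counts under each alternative listed above, at 6 or 7 higher and 1 lower for inhibition and 5 to 7 higher and 1 lower for spermidine. The comparison of spermidine with inhibition was less steady. The 2 receptor genes higher became 1 with DESeq2 and 1 with no filter on low counts, and 1 to 2 when single libraries were left out. They became 3 with total count scaling and 3 with limma on either TPM scale, where Il1r1, Csf1r and Csf2rb2 were called and Il6st was not. The 3 receptor genes lower in the main test became 1 with total count scaling and 1 with limma on either TPM scale. Over all genes in that comparison, 7711 were higher and 1793 lower with total count scaling, 7112 and 1256 on log2(TPM + 1), and 7079 and 1226 on log2(TPM + 0.1). For spermidine against control, limma left 2811 and 2751 genes lower on these TPM scales. Csf1r changed sign on TPM: 0.31 and 0.58 for spermidine against inhibition and 0.46 and 0.91 against control, at pseudocounts of 1 and 0.1, where its effective length moved as well. With total count scaling it was 0.11 and 0.18, not called in either. The cause of the other changes was not tested. Under the replicate block, Il6ra in spermidine against control was 0.27 (edgeR adjusted p = 0.0516) and lost its call, and no other receptor gene's call changed. Depth limits Epor most, which had 8 to 19 counts in the silenced groups.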
